A study of Mus musculus with 9 samples.

Results

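Expression of the matrix proteases and their inhibitors was examined in B16 mouse melanoma cells by RNA sequencing. The set holds 10 genes chosen by symbol, out of 22972 gene names in each deposited table. They are the matrix metalloproteinases Mmp2, Mmp9, Mmp14 and Mmp15, the tissue inhibitors Timp1, Timp2 and Timp3, the cell-surface sheddases Adam10 and Adam17, and Bsg (basigin, also called EMMPRIN). All 10 symbols were found in all 9 libraries. The study asked how cyclic straining of the substrate acts on melanoma cells. All cells were wild type, grew on a flexible PDMS film in medium with serum, and were labelled as harvested on day 3. CTL denotes 3 libraries from cells without straining, MS denotes 3 libraries from cells strained cyclically for 72 h, and MS + Blebb. denotes 3 libraries from cells treated for 72 h with 100 ng/mL blebbistatin, which inhibits myosin. The sample labels of the last group name blebbistatin alone, while the study names it together with straining, so whether these cells were strained rests on that name, and so does the meaning of its comparisons with CTL and with MS. The labels call replicates parallel experiments and do not say that they came from separate cultures, so p-values measure only the spread between these libraries, which may be technical.

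Matrix metalloproteinases are zinc enzymes that are made as inactive proenzymes and cut collagens, gelatin and other matrix proteins. Mmp14 and Mmp15 are anchored in the cell membrane, whereas Mmp2 and Mmp9, the gelatinases, are secreted, and Mmp14 together with Timp2 activates the proenzyme of Mmp2 at the cell surface. The Timp proteins bind the active site of these enzymes, and Timp3 also inhibits Adam17. Adam10 and Adam17 release the outer parts of membrane proteins such as Notch, cadherins and the precursor of tumour necrosis factor, and basigin is a membrane glycoprotein known to induce metalloproteinases in neighbouring stromal cells and to carry lactate transporters to the membrane.

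Values are given in FPKM, fragment counts corrected for gene length and for the mapped total of a library. Between 9529 and 10388 genes reached 1 FPKM in a library, and the number of reads is unknown, so no counting error can be given. Log2 fold changes are on the scale of log2(FPKM + 1), which understates changes of genes near 0. The melanocytic marker genes (9 of 9 with a mean of at least 1 FPKM) summed to between 9595 and 15628 FPKM, fibroblast markers to at most 0.567 FPKM (0 of 7 genes at that mean, 3 listed at 0 throughout) and keratinocyte markers to at most 0.055 FPKM (0 of 5, 2 listed at 0). Macrophage markers summed to between 2.10 and 4.32 FPKM, with Cd68 as the single gene of 6 above the minimum. Replicate 1 of CTL, replicate 3 of MS and replicate 2 of MS + Blebb., which is 1 library of each group, stood apart from the other 6. Once the GC trend was taken out, their scores on the first principal component were -35.0, -17.2 and -34.2, against 2.92 to 21.9 for the others. As deposited, MS replicate 3 was less separate, at -10.0 beside -7.29 for MS + Blebb. replicate 1. The summed FPKM of 7 stress-response genes was 1016, 788 and 1045 in these 3 libraries, and between 332 and 496 in the others.

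As for the levels, 8 of the 10 genes averaged at least 1 FPKM and entered the fit. Bsg was the most abundant, with a mean of 674 FPKM over the 9 libraries and rank 102 among all gene names. Timp2 (65.4 FPKM, rank 1118) and Mmp14 (59.1 FPKM, rank 1242) followed, so that the membrane-bound protease and the inhibitor that acts as its partner stood at like levels. Their order was not fixed, since Timp2 was the higher in 4 of 9 libraries. Adam10 (10.0 FPKM), Timp3 (8.59 FPKM), Adam17 (5.70 FPKM) and Timp1 (4.64 FPKM) formed a middle range in which each neighbour overlapped the next. Mmp15 was low at 1.44 FPKM. Mmp2 was lower still at 0.853 FPKM and reached 1 FPKM in 3 libraries, and Mmp9 was barely or not expressed, at 0.0134 FPKM with 3 libraries listed at 0. The lowest library of Bsg lay above the highest of Timp2, and likewise Mmp14 lay above Adam10, Timp1 above Mmp15, and Mmp2 above Mmp9 in all 9 libraries. Mmp15 was above Mmp2 in 9 of 9 libraries although their ranges overlapped. The secreted gelatinases were thus the lowest of the set, and the membrane-bound Mmp14 had the highest FPKM of the 4 matrix metalloproteinases in all 9 libraries.

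**Figure D1:**
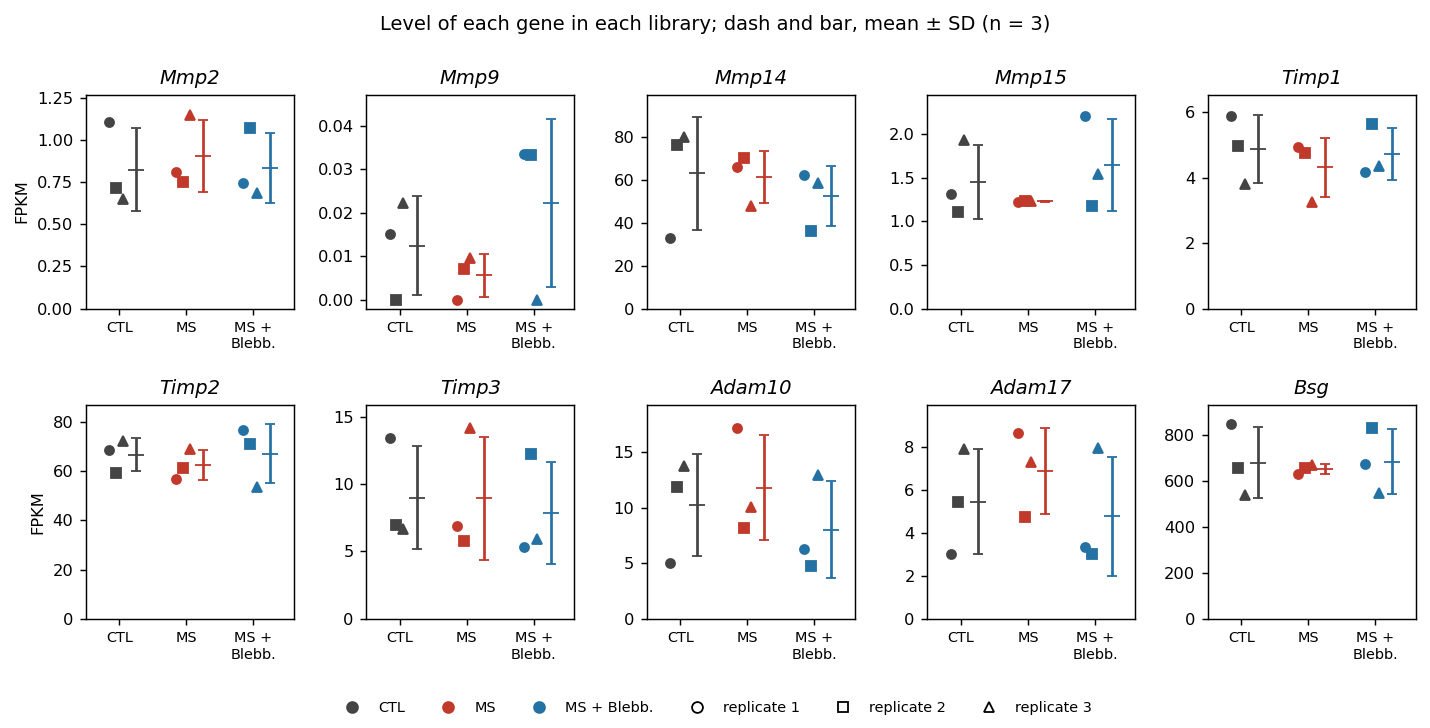
FPKM of the 10 genes in the 9 libraries, 1 panel per gene with a linear axis of its own, grouped as CTL, MS and MS + Blebb. Points are single libraries, and the dash and bar are the group mean and SD (n = 3). The 3 groups overlap for all 8 tested genes, and Mmp9 stays under 0.034 FPKM.

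Promoters are shown for the 4 members whose FPKM varied most between libraries, namely Mmp14, Timp3, Adam10 and Adam17, so that their start regions can be compared. Each line gives the 250 bases before the RefSeq start on GRCm38.p6, read 5′ to 3′ on the strand of the gene. They lie at chr14:54431348-54431597 (plus strand), chr10:86300162-86300411 (plus), chr9:70678732-70678981 (plus) and chr12:21373633-21373882 (minus). Capitals mark matches to the motifs searched, which in these 4 windows were all GC boxes (GGGCGG on either strand).
Mmp14: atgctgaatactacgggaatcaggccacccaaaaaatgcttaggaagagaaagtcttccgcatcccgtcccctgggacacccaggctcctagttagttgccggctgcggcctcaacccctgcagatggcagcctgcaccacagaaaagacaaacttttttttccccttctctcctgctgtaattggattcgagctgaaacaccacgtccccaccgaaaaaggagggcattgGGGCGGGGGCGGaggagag
Timp3: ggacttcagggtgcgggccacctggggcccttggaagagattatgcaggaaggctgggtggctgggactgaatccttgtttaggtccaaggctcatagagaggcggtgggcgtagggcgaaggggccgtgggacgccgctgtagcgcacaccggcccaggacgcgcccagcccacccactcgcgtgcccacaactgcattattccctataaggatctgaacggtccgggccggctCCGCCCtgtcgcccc
Adam10: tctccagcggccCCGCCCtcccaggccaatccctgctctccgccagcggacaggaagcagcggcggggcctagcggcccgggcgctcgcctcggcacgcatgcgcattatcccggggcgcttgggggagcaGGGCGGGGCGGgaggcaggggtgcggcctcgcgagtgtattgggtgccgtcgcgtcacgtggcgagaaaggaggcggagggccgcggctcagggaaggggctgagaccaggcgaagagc
Adam17: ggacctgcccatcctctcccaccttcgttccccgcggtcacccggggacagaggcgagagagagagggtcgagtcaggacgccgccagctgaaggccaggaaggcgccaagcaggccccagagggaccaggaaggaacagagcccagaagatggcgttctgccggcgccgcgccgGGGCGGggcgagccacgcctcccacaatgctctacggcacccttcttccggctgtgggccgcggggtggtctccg
The windows of the 7 members with an entry had 54.4 to 74.0% GC. All 27025 promoter windows served as background, without a match to the members for GC content or expression. The GC box was found in 7 of 7 members, against 32.9% of that background. In Mmp14 it began 19 and 13 bases before the start, in Timp3 15 bases, and in Adam17 75 bases. In Adam10 it began 238, 119 and 114 bases before the start, and the last pair of matches share a base. The AP-1 motif TGANTCA was found in 0 of the 7 windows (6.87% of all promoters), the E-box CATGTG in 0 (12.2%), TATAAA in 0 (13.0%) and the TEAD motif GGAATG in 1, that of Timp1 (12.6%). No matches of different motifs overlapped. Both strands were searched, and a match is a description of the letters in this window. RefSeq windows for Mmp2, Mmp9 and Bsg were not analysed here.

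Mmp14, on chr14:54431612-54445364, is the membrane-type protease that activates the Mmp2 proenzyme. Its FPKM was 32.7, 76.6 and 80.2 in CTL, 66.1, 70.4 and 47.8 in MS, and 62.6, 36.4 and 58.8 in MS + Blebb. The lowest library of each group was the one that stood apart, and the ranges of the groups overlapped. Means were 63.2 ± 26.4, 61.4 ± 12.04 and 52.6 ± 14.2 FPKM (SD, n = 3). For MS versus CTL the log2 fold change was 0.046 (standard error 0.35, 95% interval -0.75 to 0.84, adjusted p = 1.00, limma). For MS + Blebb. versus MS it was -0.24 (95% interval -1.03 to 0.55, adjusted p = 0.898, limma). The differences were smaller than the spread between replicates. Without CTL replicate 1, MS versus CTL turned to -0.37, and without the 3 libraries that stood apart it was -0.20. In those 6 libraries MS + Blebb. versus CTL was -0.36, with an unadjusted p of 0.0179 and an adjusted p of 1.00 (limma). With these 3 libraries as a block, which was added once the data had been seen, the standard error fell to 0.14 and the adjusted p for MS + Blebb. versus MS was 0.534 (limma).

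Mmp15, on chr8:95352268-95375080, is a related membrane-type protease and was near the minimum level. FPKM was 1.31, 1.11 and 1.93 in CTL, 1.22, 1.23 and 1.23 in MS, and 2.21, 1.17 and 1.54 in MS + Blebb. The MS libraries were nearly identical, with a mean of 1.23 ± 0.00402 FPKM (SD, n = 3), and they lay inside the ranges of both other groups. Log2 fold changes were -0.12 (standard error 0.20) in MS versus CTL and 0.23 in MS + Blebb. versus MS, with adjusted p of 1.00 and 0.897 (limma). Groups accounted for 21.5% of the variance of Mmp15, the largest share among the 8 tested genes, against a median of 12.7% over all genes tested. With 3 libraries per group, a share of this size also arises where groups do not differ.

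Mmp2, on chr8:92827291-92853420, encodes a gelatinase and stood just under the minimum for the fit. FPKM was 1.11, 0.714 and 0.649 in CTL, 0.809, 0.752 and 1.15 in MS, and 0.743, 1.07 and 0.688 in MS + Blebb. In each group the library that stood apart was the highest and alone reached 1 FPKM. The difference in mean FPKM was 0.079 in MS versus CTL (exact permutation p = 0.5, two-sided) and -0.069 in MS + Blebb. versus MS (exact permutation p = 0.5). With 3 libraries against 3 the smallest p such a test allows is 0.1. Mmp9, the other gelatinase, on chr2:164940780-164955850, was at 0.0152, 0 and 0.0221 FPKM in CTL, 0, 0.00709 and 0.00954 in MS, and 0.0336, 0.0333 and 0 in MS + Blebb. One library of each group was listed at 0, so no fold change is given. The exact permutation p for Mmp9 was 0.5, 0.4 and 0.6 in MS versus CTL, MS + Blebb. versus MS and MS + Blebb. versus CTL.

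As deposited, the sheddases had the largest SD of log2(FPKM + 1) among the 8 tested genes. Adam10, on chr9:70678997-70780229, cuts Notch and cadherins among other membrane proteins. Its FPKM was 5.06, 11.9 and 13.8 in CTL, 17.2, 8.21 and 10.1 in MS, and 6.28, 4.79 and 13.0 in MS + Blebb. The highest library exceeded the lowest 3.59-fold, and both extremes belonged to different groups, with wide overlap. Means were 10.3 ± 4.60, 11.8 ± 4.74 and 8.02 ± 4.36 FPKM (SD, n = 3). The log2 fold change was 0.23 (standard error 0.43) in MS versus CTL and -0.55 (interval -1.52 to 0.42) in MS + Blebb. versus MS, with adjusted p of 1.00 and 0.897 (limma). Without the 3 libraries that stood apart, MS versus CTL was -0.095. Leaving out single libraries moved MS + Blebb. versus MS to -0.92 when MS + Blebb. replicate 3 was omitted and to -0.27 when MS replicate 1 was omitted.

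Adam17, on chr12:21323509-21373632, is the sheddase of the tumour necrosis factor precursor. Its FPKM was 3.01, 5.42 and 7.91 in CTL, 8.62, 4.71 and 7.30 in MS, and 3.35, 3.00 and 7.95 in MS + Blebb. Again the groups overlapped, and the largest and the smallest value came from MS and MS + Blebb. The log2 fold change was 0.33 (standard error 0.38) in MS versus CTL, and -0.52 (interval -1.38 to 0.35) in MS + Blebb. versus MS, with adjusted p of 1.00 and 0.897 (limma). Leaving out single libraries moved MS versus CTL between 0.026 (without CTL replicate 1) and 0.60 (without CTL replicate 3), and MS + Blebb. versus MS between -0.89 when replicate 3 of MS + Blebb. was omitted and -0.30 when its replicate 2 was. The gene overlaps exons of Iah1 on the opposite strand, which was at 21.5 to 61.6 FPKM. Whether reads were assigned by strand is not stated, so reads of this pair may not be told apart.

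Adam10 and Adam17 moved together from library to library. Such shared movement was not particular to them. Of the variation between libraries, 70.4% as deposited lay along principal component 1, and 68.7% with the GC trend removed. Adam10 had a higher r with its nearest genes among 7003 compared, Psmd1 (0.996) and Cbx5 (0.995), than with Adam17. How often other gene pairs reach the r values below was not tested. Over the 9 libraries, Pearson's r of log2(FPKM + 1) between Adam10 and Adam17 was 0.95 (exact permutation p = 0.000289, adjusted 0.0104 over 36 pairs). Spearman's rho was 0.97 (exact permutation p = 0.000165, adjusted 0.00595), and r was 0.90 without the 2 libraries farthest from the median. Adjusted Pearson p was also under 0.05 (exact permutation) for Mmp2 with Timp3 (r = 0.95), Mmp14 (-0.88) and Bsg (0.79). The same held for Bsg with Adam10 (-0.84), Adam17 (-0.83) and Mmp14 (-0.82). By Spearman's rho, only Adam10 with Bsg of these pairs had an adjusted p under 0.05 (0.0236, exact permutation). For the others it was 0.0541 to 0.259 (exact permutation). Without the 2 libraries farthest from the median, r of Bsg was -0.57 with Adam10, -0.60 with Adam17 and -0.31 with Mmp14. For Mmp2 it was then 0.86 with Timp3, -0.89 with Mmp14 and 0.90 with Bsg. Adam10 and Adam17 also followed the degree to which a library's FPKM depends on the GC content of genes. That dependence, r between a library's deviations and GC content, was 0.45, -0.18 and -0.42 in CTL, -0.64, 0.057 and -0.16 in MS, and 0.55, 0.54 and -0.54 in MS + Blebb. Against it, r was -0.97 for Adam10 (exact permutation p = 5.51e-05, adjusted 0.000273 over 9 genes) and -0.97 for Adam17 (exact permutation p = 6.06e-05, adjusted 0.000273). Spearman's rho was -0.93 for each (exact permutation p = 0.00075, adjusted 0.00337). Without the 2 libraries farthest from the median, r was -0.98 and -0.96. CTL replicate 1 and MS + Blebb. replicates 1 and 2 lay apart at the high end of this dependence, and within the other 6 libraries r was -0.94 for Adam10 and -0.89 for Adam17 (exact permutation p = 0.00694 each, adjusted 0.0139 over 4 relations), with rho of -0.94 for each (exact permutation p = 0.0167, adjusted 0.0333). The r of the pair in these 6 was 0.79 (exact permutation p = 0.0597, adjusted 0.0796) and rho was 0.89 (exact permutation p = 0.0333, adjusted 0.0444). The transcripts of Adam10 and Adam17 have the lowest GC content of the set, 42.1% and 45.1%. Among the other members, r against the GC dependence was 0.10 for Mmp15, which has the highest GC content (59.6%). It was -0.60 for Mmp14 (54.3%) and 0.35 for Timp3 (46.8%). For Mmp2 (55.3%), Timp1 (52.8%) and Timp2 (53.7%) it was 0.48, 0.41 and 0.68. Adjusted p was at least 0.113 for each of these members (exact permutation). After the GC trend was taken out of each library, Adam10 and Adam17 still had an r of 0.89. The SD over libraries fell from 0.59 to 0.28 for Adam10 and from 0.52 to 0.31 for Adam17 on the log2 scale. It rose from 0.50 to 0.57 for Timp3, from 0.45 to 0.49 for Mmp14 and from 0.21 to 0.24 for Mmp15. The SDs of the sheddases were then below those of Timp3 and Mmp14. The fold changes of Adam10 and Adam17 in MS + Blebb. versus MS became -0.25 and -0.30. The part of the GC trend in these differences was not tested further. How many other genes follow the GC dependence as closely was not tested either, so its p-values do not set Adam10 and Adam17 apart from other genes.

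**Figure D2:**
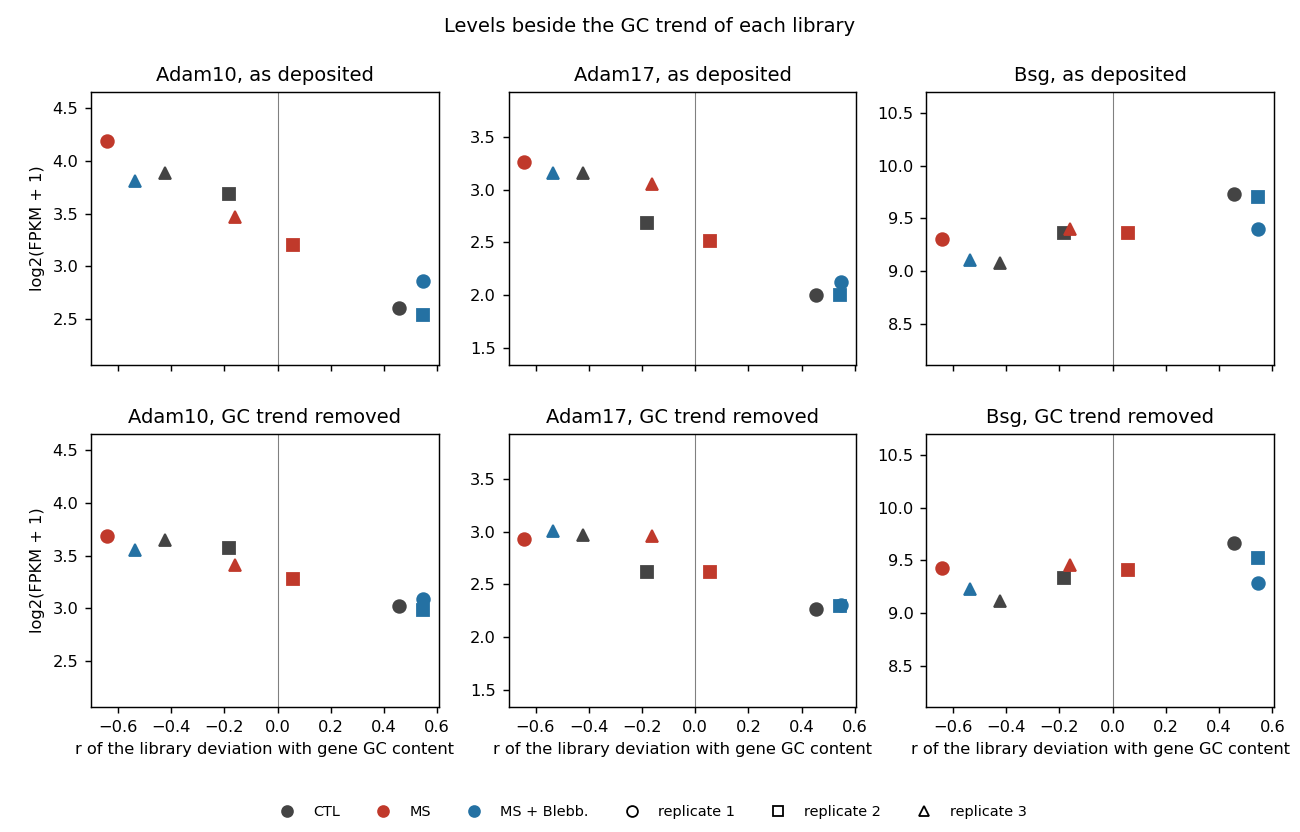
Log2(FPKM + 1) of Adam10, Adam17 and Bsg against the Pearson r of each library's deviations with gene GC content, 1 point per library (9 libraries), coloured by group, as deposited (top row) and with the GC trend removed (bottom row). As deposited, Adam10 and Adam17 fall with r of -0.97 each and Bsg rises with r of 0.80.

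Of the inhibitors, Timp1, on chrX:20870166-20874735, a broad inhibitor that acts weakly on membrane-type enzymes, was at 5.87, 4.96 and 3.80 FPKM in CTL, 4.92, 4.75 and 3.27 in MS, and 4.18, 5.64 and 4.34 in MS + Blebb. The groups overlapped. Its log2 fold change was -0.15 (standard error 0.20) in MS versus CTL and 0.11 in MS + Blebb. versus MS, with adjusted p of 1.00 and 0.913 (limma). Timp2, on chr11:118301069-118355740, was the steadiest member, with a highest library only 1.43 times the lowest. Its FPKM was 68.6, 59.2 and 72.4 in CTL, 56.8, 61.3 and 69.1 in MS, and 76.8, 71.0 and 53.7 in MS + Blebb. The log2 fold change of Timp2 was -0.095 (interval -0.45 to 0.26) in MS versus CTL and 0.093 (interval -0.27 to 0.45) in MS + Blebb. versus MS, both close to 0 (adjusted p = 1.00 and 0.911, limma). Without the 3 libraries that stood apart, the intervals of Timp2 were wider, -0.61 to 0.31 and -0.34 to 0.58.

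Timp3, on chr10:86300372-86349506, is bound to the matrix and inhibits Adam17 besides metalloproteinases. Its FPKM was 13.4, 6.93 and 6.64 in CTL, 6.88, 5.74 and 14.2 in MS, and 5.35, 12.2 and 5.95 in MS + Blebb. In each group 1 library lay far above the others, and in all 3 groups it was the library that stood apart, with the high stress-gene sum. Log2 fold changes were -0.037 (standard error 0.40), -0.16 (standard error 0.40) and -0.19 in MS versus CTL, MS + Blebb. versus MS and MS + Blebb. versus CTL (adjusted p = 1.00, 0.945 and 1.00, limma). Leaving out CTL replicate 1 gave 0.26 in MS versus CTL, and leaving out MS replicate 3 gave -0.39. With the 3 libraries as a block the standard error fell from 0.40 to 0.11, and the adjusted p stayed at 0.544 or above (limma). Exons of Syn3 on the opposite strand overlap Timp3, and Syn3 was at most 0.628 FPKM.

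For Mmp14 and Mmp2 the pattern was the same in position, with Mmp14 lowest and Mmp2 highest in these 3 libraries. Among the 8 tested genes, 2 (Timp3 and Mmp14) had the 3 libraries as their 3 highest or 3 lowest, against 31.9% of all genes tested, so the share was near the background. Hpse, heparanase, which cuts heparan sulfate of the matrix, was among the other genes with this pattern (34.3, 9.96 and 8.81 FPKM in CTL, 8.36, 7.35 and 27.7 in MS, and 11.6, 39.7 and 8.92 in MS + Blebb.). Of 24 other tested genes of the protease system, 4, with Hpse, had these libraries as their 3 highest and 4 as their 3 lowest, also near the background. The part of the stress-gene level in these differences was not tested.

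**Figure D3:**
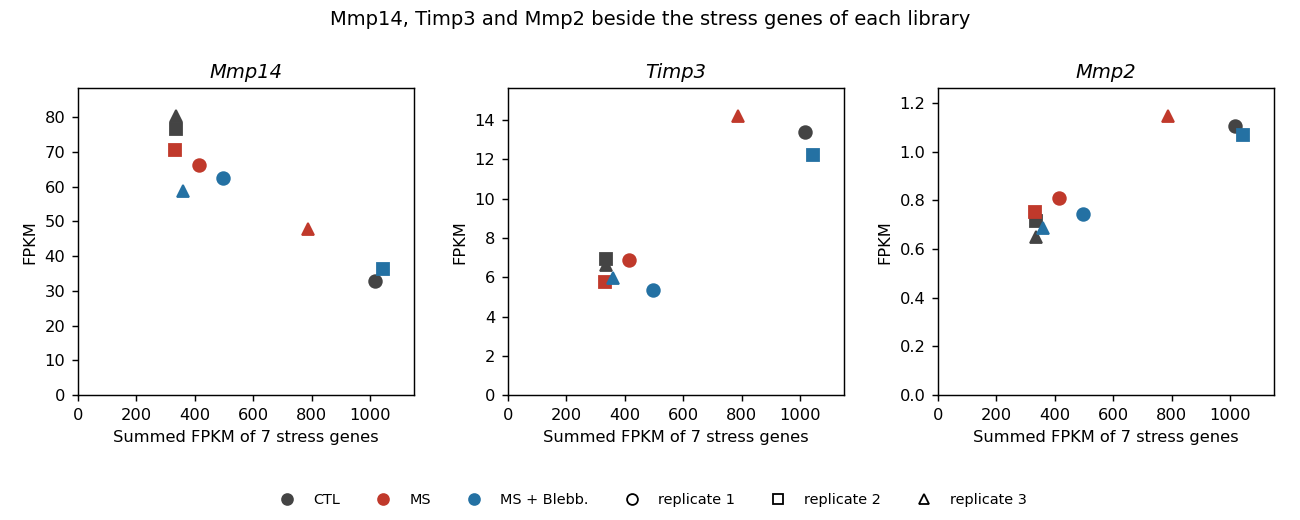
FPKM of Mmp14, Timp3 and Mmp2 against the summed FPKM of 7 stress-response genes, 1 point per library, coloured by group, with linear axes from 0. The 3 libraries that stood apart lie to the right at 788 to 1045 FPKM, where Timp3 and Mmp2 are high and Mmp14 is low.

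Bsg, on chr10:79704491-79711969, was at 848, 656 and 541 FPKM in CTL, 632, 658 and 673 in MS, and 674, 833 and 549.7 in MS + Blebb. The MS libraries lay within the ranges of the other groups. Means were 682 ± 156, 654 ± 20.8 and 685 ± 142 FPKM (SD, n = 3). The log2 fold changes were -0.035, 0.047 and 0.012 in MS versus CTL, MS + Blebb. versus MS and MS + Blebb. versus CTL, with adjusted p of 1.00, 0.967 and 1.00 (limma). Groups accounted for 0.895% of its variance, the lowest share in the set. Bsg rose with the GC dependence of the library (r = 0.80, exact permutation p = 0.00958, adjusted 0.0287, and rho = 0.85, exact permutation p = 0.00607, adjusted 0.0182), and the GC content of its transcript is 57.6%. Within the 6 libraries of lower GC dependence, r was 0.61 (exact permutation p = 0.244) and rho 0.71 (exact permutation p = 0.136), while r was 0.85 over the 7 libraries left without the 2 farthest from the median. After removal of the GC trend, its fold changes were 0.060, -0.087 and -0.026, each of opposite sign to the value as deposited.

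Across the set, MS versus CTL gave 0 of 8 tested genes with an adjusted p under 0.05 (limma), against 0% of all 10109 genes tested, and 0 of 8 at an unadjusted p under 0.05, against 0.158%. The groups did not overlap in 0 of 8 genes, against 3.17% of all genes. MS + Blebb. versus MS gave 0 of 8 adjusted (0% of all genes), 0 of 8 unadjusted (1.25%) and 0 of 8 without overlap (3.73%). MS + Blebb. versus CTL gave 0 of 8 adjusted (0%), 0 of 8 unadjusted (0.089%) and 0 of 8 without overlap (2.08%), with fold changes between -0.33 for Adam10 and 0.10 for Mmp15. Each pair of these comparisons shares a group of libraries. The median log2 fold change of the 8 genes was -0.036, -0.055 and -0.11 in the 3 comparisons, against -0.0018, -0.0059 and -0.013 over all genes tested, and 3, 4 and 2 of the 8 were above 0. Adjusted p over all genes was at least 0.375 in MS + Blebb. versus MS, the lowest of the 3 comparisons. In bulk RNA, fewer cells of a type and less RNA per cell cannot be told apart.

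**Figure D4:**
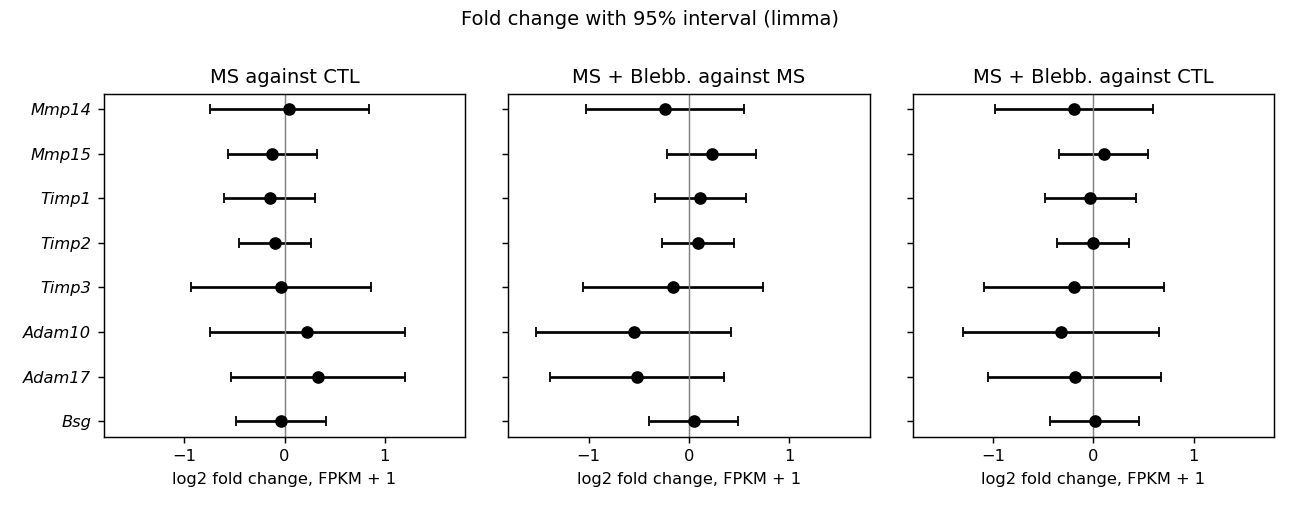
Log2 fold changes of the 8 tested genes in the 3 comparisons, from limma on log2(FPKM + 1), with 95% intervals as horizontal bars. All intervals include 0.

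The balance of protease to inhibitor was compared as a log2 ratio of FPKM + 1 within each library. Mmp14 to Timp2 was -1.05, 0.37 and 0.15 in CTL, 0.22, 0.20 and -0.52 in MS, and -0.29, -0.95 and 0.13 in MS + Blebb. Group means were -0.18 ± 0.76, -0.037 ± 0.42 and -0.37 ± 0.54 (SD, n = 3), and exact permutation p was 0.8, 0.5 and 0.7 in MS versus CTL, MS + Blebb. versus MS and MS + Blebb. versus CTL. The lowest value of each group was in the library that stood apart. Adam17 to Timp3 was -1.84, -0.31 and 0.22 in CTL, 0.29, -0.24 and -0.87 in MS, and -0.55, -1.73 and 0.37 in MS + Blebb., with exact permutation p of 0.6, 0.7 and 1. Mmp15 to Timp2 had means of -4.80, -4.83 and -4.69, with exact permutation p of 0.8, 0.5 and 0.6. None of these differences exceeded the spread between replicates, and 0.1 is the smallest p the design allows.

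The genes most alike to each member over the 9 libraries, among those of at least 5 FPKM, are given as a description by Pearson's r of log2(FPKM + 1). Adam10 was nearest to Psmd1, a proteasome subunit gene (r = 0.996), and Cbx5, which encodes a heterochromatin protein (r = 0.995). Adam17 was nearest to Pafah1b1 and Kat2b (0.99 each), and Timp3 to Mylip and Chp1 (0.99 each). Timp2 was nearest to Galnt10 (0.98) and Osbpl5 (0.97), Bsg to Tmub1 (0.98) and Asl (0.97), Mmp14 to Ankrd10 and Acin1 (0.97 each), Timp1 to Ndufa13 (0.96) and Ndufaf8 (0.93), and Mmp15 to Crtap and Kctd3 (0.91 each). These points share libraries, and for Timp3 and Mmp14 the 3 libraries that stood apart hold the extremes.

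Of 63 further genes of the protease system, 62 were in the files, 24 reached the minimum mean of 1 FPKM and 8 were listed at 0 in all libraries. None of the 24 passed the test in any of the 3 comparisons (limma, 0 also at an unadjusted p under 0.05). Among 18 other matrix metalloproteinases, Mmp11 alone was tested, at 1.16 to 3.04 FPKM, and 8 were listed at 0 throughout. Timp4 was at most 0.0978 FPKM. The highest of the 24 were Ppia (cyclophilin A, a ligand of basigin; 1723 FPKM), the lysosomal protease Ctsd (1634 FPKM), the cysteine protease inhibitor Cst3 (298 FPKM), the protease Ctsb (164 FPKM) and the hyaluronan receptor Cd44 (50.9 FPKM). Furin, which activates the membrane-type proenzymes, was at 19.9 FPKM. Plaur, the receptor of urokinase, was at 12.1 FPKM, while Plau, urokinase itself, stayed under 0.015 FPKM.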

How the data were processed

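The deposited FPKM values of 9 B16 libraries were used as given. The authors extracted RNA with TRIzol and deposited fragments scaled by gene length and library size. In CTL replicate 1 the column header is a sample name, and its values were taken to be FPKM. The submitters' processing notes name GRCm38 (mm10). The aligner, counter and annotation are not given in the sources used here. Depth is unknown, so precision rests on the spread between replicates. No column was left without a sample.

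Values were transformed as log2(FPKM + 1), and the 10109 genes averaging 1 FPKM or more were fitted in limma 3.58.1 under R 4.3.3 with a mean-variance trend, two-sided tests, Benjamini-Hochberg adjustment and a threshold of 0.05. The fit was tested on simulated data. Mmp2, Mmp9 and ratios were compared by exact permutation. GC content came from each gene's longest transcript in GENCODE M21 (9663 of 10109 tested genes) and trends were removed by loess with a span of 0.5. Gene positions are from GENCODE M21 and promoters from a RefSeq table on GRCm38.p6, in which 7 of 10 members had an entry. Plots were drawn with matplotlib 3.10.9. The genes named are the 10 members, the 5 most abundant other genes of the system, the 2 genes most alike to each tested member, and a few chosen after their values were seen (Hpse, Furin, Plaur, Plau, Timp4, Mmp11, Adam9, Adamts1, Slc16a1 and the overlapping Iah1 and Syn3). The members, lists and motifs were chosen with earlier results of these data known. Alternatives were no minimum or one of 5 FPKM, a pseudocount of 0.1, quantile normalization, median-of-ratios factors, a fit without the trend, a fit of the compared groups alone, a replicate block, removal of the GC trend, and libraries left out. A library block (the 3 libraries that stood apart), the values within 6 libraries, and the alternatives for Mmp2 and Mmp9, were added after seeing the data.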

Additional observations from a re-analysis of the deposited data

How the results depend on the processing

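Members past the threshold numbered 0 in each comparison under every alternative run (limma). Over all genes tested the number was 0 as well, with 1 exception. Without MS replicate 2, 1 of 10109 genes passed in MS versus CTL and 1 in MS + Blebb. versus MS. The 0 is thus not particular to the members. At an unadjusted p under 0.05 there was 1 of 8 members without the 3 libraries that stood apart (0.386% of all genes tested) and 1 without CTL replicate 1 (0.396%), both in MS + Blebb. versus CTL, and 1 without MS + Blebb. replicate 3 in MS + Blebb. versus MS (9.24%). Of the fold changes, differences and ratios that a setting moved at all, 51 of 234 turned direction with a single library left out and 18 of 168 under the other alternatives, while 72 and 138 further values are the same by construction. The turns were as follows, and the cause was not tested. Without the 3 libraries that stood apart, Mmp14 (-0.20), Timp1 (0.12), Adam10 (-0.095), Adam17 (-0.028) and Bsg (0.11) turned in MS versus CTL, and Timp1 (-0.15) and Bsg (-0.084) in MS + Blebb. versus MS. Quantile normalization turned Timp1 (0.058) and Bsg (-0.024), and median-of-ratios factors Timp2 (0.030), in MS + Blebb. versus CTL. Removal of the GC trend, with or without the replicate block, turned Bsg in all 3 comparisons (0.060, -0.087 and -0.026) and, without it, the Mmp15 to Timp2 ratio in MS versus CTL (0.017), and a pseudocount of 0.1 turned Adam17 to Timp3 in MS + Blebb. versus CTL (-0.0071). With single libraries left out, MS versus CTL ranged from -0.37 to 0.27 for Mmp14, -0.22 to 0.014 for Mmp15, -0.28 to 0.0039 for Timp1, -0.39 to 0.26 for Timp3, -0.17 to 0.47 for Adam10 and -0.19 to 0.13 for Bsg. MS + Blebb. versus MS ranged from -0.41 to 0.0016 for Mmp14, -0.037 to 0.20 for Timp1, -0.011 to 0.24 for Timp2, -0.49 to 0.20 for Timp3 and -0.10 to 0.20 for Bsg. MS + Blebb. versus CTL ranged from -0.61 to 0.047 for Mmp14, -0.047 to 0.24 for Mmp15, -0.17 to 0.087 for Timp1, -0.11 to 0.15 for Timp2, -0.52 to 0.10 for Timp3, -0.55 to 0.084 for Adam17 and -0.14 to 0.18 for Bsg. The difference of Mmp2 in mean FPKM ranged from -0.043 to 0.22, -0.19 to 0.053 and -0.11 to 0.15 in these comparisons. Ratios ranged from -0.29 to 0.41 and -0.63 to 0.097 for Mmp14 to Timp2 (against CTL for MS and MS + Blebb.), from -0.23 to 0.80, -0.86 to 0.18 and -0.59 to 0.55 for Adam17 to Timp3, and from -0.090 to 0.048 and -0.026 to 0.29 for Mmp15 to Timp2 (against CTL). Correlations of same-numbered deviations lay between -0.78 and 0.84, and those of other-numbered deviations between -0.88 and 0.92. The 3 libraries that stood apart carry different replicate numbers, so these ranges cannot show whether the numbers pair the libraries. The replicate block gave 0 members past the threshold and 14, 119 and 10 genes at an unadjusted p under 0.05 (limma), against 16, 126 and 9.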

Other observations

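Among the further genes of the protease system, 4 are given here that were chosen after their values were seen (Adam9, Adamts1, Slc16a1 and Ppia). Adam9, a sheddase related to Adam10, was at 4.66, 10.9 and 16.6 FPKM in CTL, 19.4, 8.78 and 12.9 in MS, and 6.98, 4.61 and 16.9 in MS + Blebb. Its lowest values fell in CTL replicate 1 and MS + Blebb. replicate 2, and the log2 fold change was 0.41 in MS versus CTL and -0.60 in MS + Blebb. versus MS, with adjusted p of 1.00 and 0.897 (limma). Adamts1, a secreted protease that cuts proteoglycans, was at 28.9, 44.3 and 45.8 FPKM in CTL, 50.7, 34.9 and 48.2 in MS, and 32.0, 31.5 and 45.3 in MS + Blebb., with overlap between all groups. Slc16a1, a lactate transporter carried by basigin, was lowest in the library of each group that stood apart, at 12.3, 16.9 and 13.2 FPKM, against 23.9 to 32.8 FPKM in the other 6. It was 1 of 4 among the 24 tested genes of the system with these libraries as the 3 lowest. Another 4 had them as the 3 highest, and 31.9% of all genes tested had either pattern, so it is not particular to Slc16a1. Ppia, also among the most abundant, had the largest log2 fold change of the system in MS + Blebb. versus CTL, 0.62, with an adjusted p of 1.00 (limma). Its FPKM was 971, 1149 and 1986 in CTL, 2190, 2255 and 762 in MS, and 2560, 1453 and 2183 in MS + Blebb. All groups overlapped.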
